A study of Mus musculus with 10 samples.

Results

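The 9 immunoglobulin constant genes Ighm, Ighd, Ighg3, Ighg1, Ighg2b, Ighg2c, Ighe, Igha and Igkc were followed through 10 RNA-seq libraries of sorted CD4 T cells. They were taken by symbol from the 53656 genes of the count tables, which hold 396 immunoglobulin genes in all. The rule that picks them uses no measured value. The libraries came from 6 TOX KO and 4 TOX WT samples of SMARTA T cells, which carry a transgenic T cell receptor. Naive cells had been given to B6 mice that bore B16-GP61 melanoma and had received cytoxan (cyclophosphamide), and were sorted from the tumour-draining lymph node 11 days after transfer. The TOX KO cells were gated as CD4+ Ly5.1+ Ly5.2- with low PD1, LAG3 and CD39. The TOX WT cells were gated as CD4+ Ly5.1+ Ly5.2+ with high PD1, LAG3 and CD39. Genotype, congenic gate and activation gate therefore cannot be told apart, and the labels do not say how many mice stand behind the replicates, so p-values measure only the spread between these samples. The replicates are numbered here as in the labels, TOX KO 1 to 6 and TOX WT 1 to 4.

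Immunoglobulin is made by B cells and plasma cells. A naive B cell splices one long heavy chain transcript to either the Ighm or the Ighd constant exons, and so makes IgM and IgD together. Class switch recombination then deletes the DNA between Ighm and a downstream constant gene, so that IgG, IgE or IgA is made with the same variable segment. A plasma cell holds far more immunoglobulin RNA than a resting B cell, so constant gene counts in bulk RNA are not a count of cells. In bulk libraries fewer cells of a type and less RNA per cell cannot be told apart.

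The 8 heavy chain constant genes lie on the minus strand of mouse chromosome 12 in GRCm38, and are transcribed in the order in which they are named here. The coordinates are those of the whole annotated genes, exons and introns together. Ighm lies at chr12:113418558-113422730 and Ighd at chr12:113406604-113416324. The genes for the IgG subclasses follow, with Ighg3 at chr12:113356224-113361232, Ighg1 at chr12:113325240-113330523, Ighg2b at chr12:113302965-113307933 and Ighg2c at chr12:113285325-113288932. Ighe lies at chr12:113269260-113273248 and Igha at chr12:113254830-113260236. Igkc, the only kappa light chain constant gene, lies on the plus strand of chromosome 6 at chr6:70726435-70726966. No exon of the 9 genes overlapped an exon of another annotated gene.

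The 4 IgG genes are close copies, so whether reads of 50 bases can be assigned among them bears on every isotype share below. The first 50 bases of each CH1 exon, which encodes the first constant domain, are printed 5′ to 3′ from GENCODE M21 transcripts on GRCm38. Capitals mark bases that differ from Ighg2c.
Ighg3 CH1, chr12:113361183-113361232, minus strand: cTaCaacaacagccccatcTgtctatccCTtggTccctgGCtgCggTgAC
Ighg1 CH1, chr12:113330474-113330523, minus strand: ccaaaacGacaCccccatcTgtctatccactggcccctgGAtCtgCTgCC
Ighg2b CH1, chr12:113307884-113307933, minus strand: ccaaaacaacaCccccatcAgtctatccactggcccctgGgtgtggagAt
Ighg2c CH1, chr12:113288883-113288932, minus strand: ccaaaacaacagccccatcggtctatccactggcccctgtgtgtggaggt
These stretches held 12 differences from Ighg2c in Ighg3, 10 in Ighg1 and 4 in Ighg2b. Over the 291 bases of the CH1 exon, identity to Ighg2c was 78.4% for Ighg3, 88.0% for Ighg1 and 87.6% for Ighg2b.

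The hinge exons, which encode the flexible stretch between the antigen-binding arms and the stem of the antibody, differ in length as well as in sequence, and are shown because they tell the subclasses apart most plainly.
Ighg3 hinge, chr12:113360529-113360576, minus strand: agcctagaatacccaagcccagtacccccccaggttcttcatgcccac
Ighg1 hinge, chr12:113329844-113329882, minus strand: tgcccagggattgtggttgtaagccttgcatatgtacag
Ighg2b hinge, chr12:113307261-113307326, minus strand: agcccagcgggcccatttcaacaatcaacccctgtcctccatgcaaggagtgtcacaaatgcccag
Ighg2c hinge, chr12:113288263-113288325, minus strand: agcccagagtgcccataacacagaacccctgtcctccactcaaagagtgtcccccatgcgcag
The hinge exon has 48 bases in Ighg3, 39 in Ighg1, 66 in Ighg2b and 63 in Ighg2c. Of all 50-base words in a gene's transcripts, 5.49% were shared with another gene for Ighg2c, 4.15% for Ighg2b, 1.58% for Ighg3 and 0.393% for Ighg1. No word of Ighm, Ighd, Ighe, Igha or Igkc occurred in another gene. Reads that matched several places were not counted by the authors, so the IgG genes may be undercounted in those stretches.

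The libraries held 36028980 to 55784453 counts in TOX KO and 31939816 to 45481478 in TOX WT. Tox, the targeted gene, averaged 31.0 ± 20.8 CPM in TOX KO and 236 ± 88.0 CPM in TOX WT (SD, n = 6 and 4), with every TOX KO library below every TOX WT library. T cell receptor RNA was high in both groups, with Trac at 4525 to 10822 CPM in TOX KO and 2422 to 6855 CPM in TOX WT. CPM (counts per 1000000 counts) are scaled by TMM, and a count of 3 corresponds to 0.0554 to 0.0851 CPM in TOX KO and 0.0725 to 0.0856 CPM in TOX WT. Libraries that stand apart on members are TOX KO 6, TOX WT 4 and, for Ighg3, TOX KO 4, while TOX WT 1 is the lowest TOX WT library for every member but Igha, and the member calls that turn on one of them are given without it as well.

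Immunoglobulin constant RNA was lower in TOX KO than in TOX WT. The 9 genes took 0.0811 to 0.169% of all counts in TOX KO and 0.651 to 14.0% in TOX WT. Of the 9, 7 fell in TOX KO and 0 rose at an adjusted p under 0.05 (edgeR's quasi-likelihood test, Benjamini-Hochberg adjustment over the 14214 genes tested), and Ighg2b and Ighe did not pass. At an unadjusted p under 0.05, 9 were lower and 0 higher, against 1537 lower and 1017 higher of the 14214 genes tested (edgeR). DESeq2 and limma-voom each called 7 lower and 0 higher, with Ighg2b among them. DESeq2 gave no adjusted p for Igha or Ighe, and limma-voom did not call Igha (adjusted p = 0.23). Over all genes tested, 2.70% were called lower in TOX KO by edgeR, 7.03% by DESeq2 and 19.5% by limma-voom. The median log2 fold change was -7.91 over the 9 genes and -0.12 over all genes tested. Every TOX KO library lay below every TOX WT library for 7 of the 9 genes, all but Ighg2c and Ighe, and for 6.31% of all genes tested. Without TOX WT 1, 8 of the 9 genes were called lower, against 7.90% of all genes. All 9 genes passed the filter on low counts, but Ighg3 and Ighe reached its level of 0.241 CPM in only 2 and 1 of the 6 TOX KO libraries, so they passed through the TOX WT libraries.

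**Figure D1:**
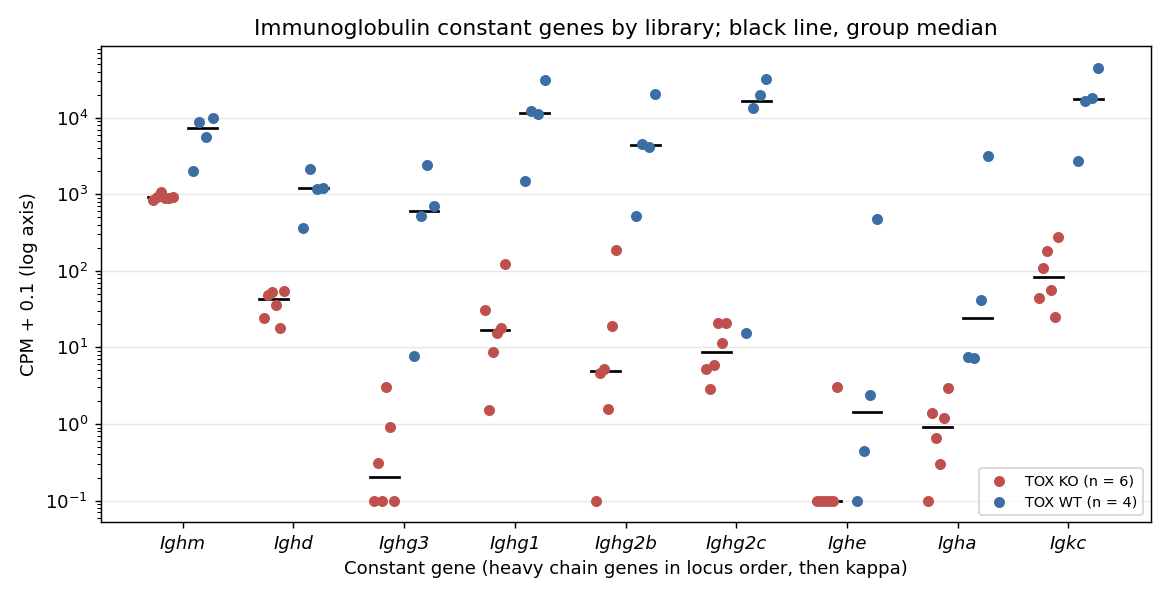
CPM plus 0.1, on a log axis, of the 9 constant genes in each library, with TOX KO (n = 6) left of TOX WT (n = 4) and a black line at each group's median. The TOX KO values of Ighm sit between 839 and 1070 CPM, while those of Igkc span 24.5 to 280 CPM, and TOX WT 1 lies among the TOX KO libraries for Ighg2c.

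Ighm encodes the heavy chain of IgM, the isotype that every mouse B cell makes first. It had 839 CPM in the lowest TOX KO library, a median of 909 CPM and 1070 CPM in the highest, against 2008, 8868, 5650 and 9858 CPM in TOX WT 1 to 4. The groups did not overlap, and the TOX KO libraries were far more alike than the TOX WT ones, with a coefficient of variation of 8.48% in TOX KO and 53.8% in TOX WT. The mean was 924 ± 78.3 CPM in TOX KO and 6596 ± 3548 CPM in TOX WT (SD, n = 6 and 4). TOX KO over TOX WT gave a log2 fold change of -2.84 (SE 0.36, adjusted p = 0.0031, edgeR). In this fit it was the smallest change of the 9 genes.

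Ighd encodes the heavy chain of IgD, which marks naive B cells and is lost on switching. Its lowest, median and highest values in TOX KO were 17.9, 42.5 and 55.2 CPM, against 362, 2138, 1171 and 1212 CPM in TOX WT 1 to 4. The groups were apart, the highest TOX KO library lying 6.56-fold below the lowest TOX WT library. The fall amounted to a log2 fold change of -4.96 (SE 0.51, adjusted p = 0.0014, edgeR). Among TOX KO libraries Ighd varied more than Ighm, with a coefficient of variation of 40.1%.

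Of the genes for the IgG subclasses, Ighg1 and Ighg2c fell in TOX KO and kept their call in all 10 fits that each left out 1 library. Ighg1 encodes the IgG1 heavy chain. It had 30.9, 1.40, 8.68, 15.1, 18.1 and 123 CPM in TOX KO 1 to 6, against 1503, 12076, 11263 and 30699 CPM in TOX WT 1 to 4. All TOX KO libraries were low, TOX KO 6 the least so. The log2 fold change was -8.72 (SE 1.31, adjusted p = 0.0065, edgeR).

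Ighg2c encodes the IgG2c heavy chain, which C57BL/6 mice carry in the place of the IgG2a gene of other strains. It had 5.19, 2.76, 5.85, 20.7, 11.4 and 20.6 CPM in TOX KO 1 to 6, against 15.4, 13502, 19941 and 32346 CPM in TOX WT 1 to 4. The groups overlap, because TOX WT 1 lies inside the TOX KO range while the other TOX WT libraries lie far above it. The log2 fold change was -10.54 (SE 1.55, adjusted p = 0.0059, edgeR) and -10.95 (adjusted p = 1.6e-04) without TOX WT 1.

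Ighg2b encodes the IgG2b heavy chain. It had 0, 4.54, 5.17, 1.47, 19.0 and 188 CPM in TOX KO 1 to 6, against 523, 4543, 4137 and 20633 CPM in TOX WT 1 to 4. No TOX KO library reached the lowest TOX WT library, but TOX KO 6 stood well above the other TOX KO libraries. The log2 fold change of -7.68 (SE 1.99) did not pass, with an adjusted p of 0.070 (edgeR). It passed without TOX KO 6 (-10.27, adjusted p = 0.023), without TOX WT 1 (-8.06, adjusted p = 0.032), with DESeq2 (adjusted p = 2.8e-05) and with limma-voom (adjusted p = 0.0040).

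Ighg3 encodes the IgG3 heavy chain, a subclass typical of responses to polysaccharide antigens. It had 0, 0.212, 0, 2.97, 0.814 and 0 CPM in TOX KO 1 to 6, against 7.73, 521, 2431 and 703 CPM in TOX WT 1 to 4. All TOX KO libraries were below all TOX WT libraries, and 3 of the TOX KO libraries had no count. The log2 fold change was -10.43 (SE 2.10, adjusted p = 0.025, edgeR), a fitted value that depends on the prior count because of those zeros. The call was lost in 5 of the 10 fits that each left out 1 library, with an adjusted p of up to 0.065 without TOX WT 4. It held without TOX KO 4 (-12.05, adjusted p = 0.026, edgeR).

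Ighe and Igha, the genes for the IgE and IgA heavy chains, were high in 1 library. Ighe had no count in TOX KO 1 to 5 and 2.93 CPM in TOX KO 6, against 0, 0.342, 2.32 and 471 CPM in TOX WT 1 to 4. Igha had 0, 1.30, 0.554, 0.203, 1.10 and 2.86 CPM in TOX KO 1 to 6, against 7.32, 7.13, 41.2 and 3163 CPM in TOX WT 1 to 4. TOX WT 4 held nearly all of both. The Ighe groups overlap, and its log2 fold change of -7.91 (SE 2.88) did not pass, with an adjusted p of 0.19 (edgeR) and a value of -0.85 (adjusted p = 0.94) without TOX WT 4. Igha was called lower (-9.64, SE 2.10, adjusted p = 0.035, edgeR), but the call was lost in 7 of the 10 fits that each left out 1 library, and without TOX WT 4 the value was -4.17 (adjusted p = 0.22).

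Igkc encodes the constant region of the kappa light chain, which pairs with heavy chains of every isotype. It had 44.5, 108, 182, 55.4, 24.5 and 280 CPM in TOX KO 1 to 6, against 2725, 16746, 18352 and 45126 CPM in TOX WT 1 to 4. The groups were apart, and within TOX KO the highest library held 11.4 times the CPM of the lowest, against 1.28 times for Ighm. The log2 fold change was -7.49 (SE 0.94, adjusted p = 0.0029, edgeR). The lambda light chain constant genes Iglc1, Iglc2 and Iglc3, chosen as a list beside Igkc, fell as well, 3 of 3, with log2 fold changes of -6.43 (adjusted p = 0.0029), -5.06 (adjusted p = 0.0023) and -4.96 (adjusted p = 0.0023, edgeR).

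**Figure D2:**
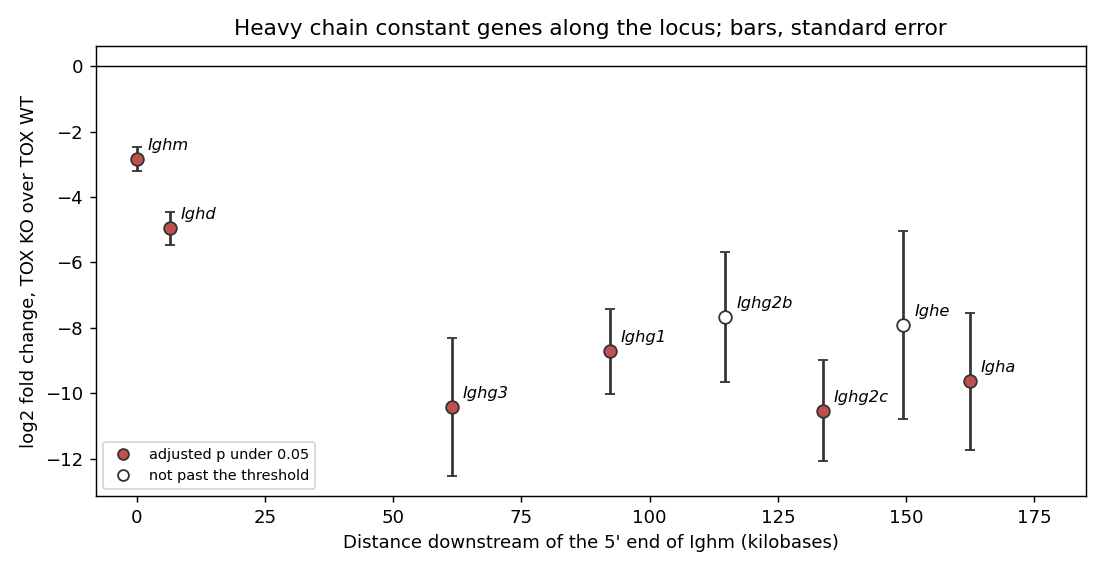
Log2 fold change of TOX KO over TOX WT with its standard error (vertical axis) for the 8 heavy chain constant genes, placed by distance in kilobases downstream of the 5′ end of Ighm. Filled points passed an adjusted p of 0.05 and open points did not. Ighm and Ighd, within 6.41 kb of each other's 5′ ends, lie at -2.84 and -4.96, and the 6 downstream genes lie between -7.68 and -10.54 with standard errors of 1.31 to 2.88.

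Along the locus the 5′ end of Ighd lies 6.41 kb downstream of that of Ighm, and the others lie at 61.5 kb (Ighg3), 92.2 kb (Ighg1), 114.8 kb (Ighg2b), 133.8 kb (Ighg2c), 149.5 kb (Ighe) and 162.5 kb (Igha). The 6 downstream genes had the more negative values, but their standard errors overlap one another and no order among them was tested.

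The isotype makeup of the heavy chain RNA differed between the groups. Levels were set against each other per length, as counts per kilobase of exon, and each gene's share is its part of the summed level of the 8 heavy chain genes. Ighm made up 94.0, 94.1, 93.7, 91.7, 93.6 and 74.9% of this level in TOX KO 1 to 6, against 52.0, 20.8, 11.7 and 10.1% in TOX WT 1 to 4. Ighm was thus the leading gene in every TOX KO library and in TOX WT 1, while Ighg2c led in TOX WT 2 to 4, with 45.1, 58.9 and 47.3%. Ighd made up 1.84 to 4.98% in TOX KO and 1.24 to 9.30% in TOX WT, and these ranges overlap.

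The 6 genes that are reached only by class switching, summed, made up 3.34, 0.945, 1.64, 4.54, 4.58 and 20.7% of the heavy chain level in TOX KO 1 to 6, against 38.7, 74.2, 85.9 and 88.6% in TOX WT 1 to 4. The groups did not overlap. The mean was 5.96 ± 7.38% in TOX KO and 71.8 ± 23.0% in TOX WT (SD, n = 6 and 4), a difference of -65.9 percentage points. An exact two-sided permutation test over libraries gave p = 0.0095, the smallest it can give for 6 against 4, and the same after Benjamini-Hochberg adjustment over the 3 makeup measures tested. Without TOX KO 6 the difference was -68.8 points, and without TOX WT 1 it was -76.9 points. In raw counts the switched genes took 1.05% of heavy chain counts in TOX KO 2 (95% Wilson interval 0.957 to 1.14%) and 25.6% in TOX KO 6 (25.2 to 25.9%), against 46.5% in TOX WT 1 (46.2 to 46.7%), so the spread within TOX KO is far wider than the counting error, which is all that these intervals cover.

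**Figure D3:**
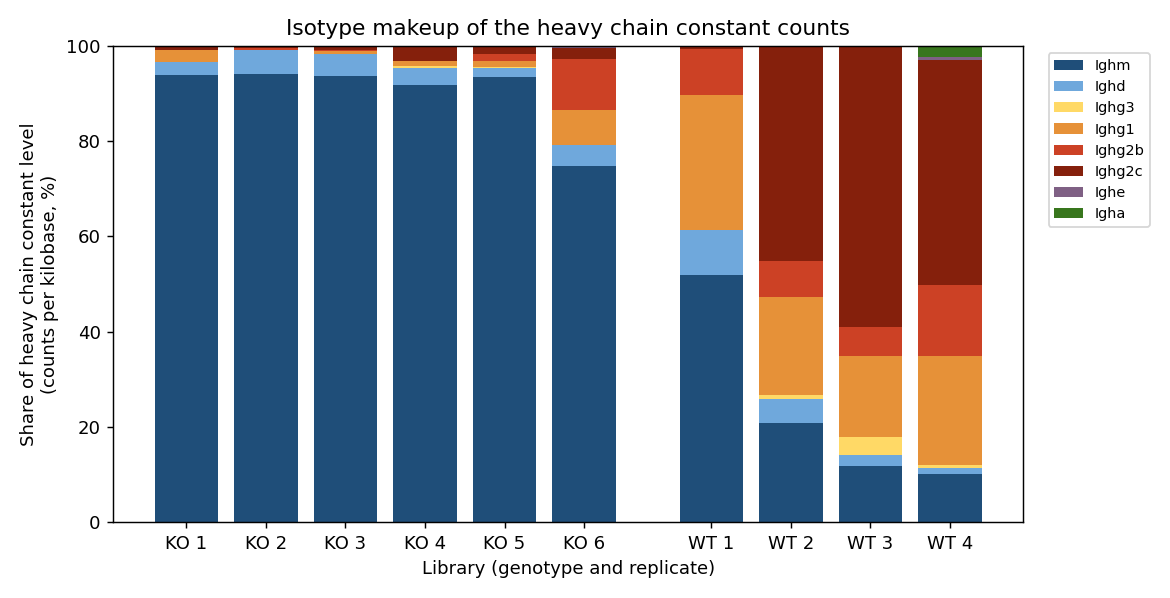
Share of the summed heavy chain level, in percent of counts per kilobase, taken by each of the 8 constant genes in every library, TOX KO 1 to 6 left of TOX WT 1 to 4. Ighm (dark blue) fills 74.9 to 94.1% of each TOX KO bar and 10.1 to 52.0% of each TOX WT bar.

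Among the switched genes alone the leading subclass varied by library. Ighg2c took 24.7, 42.6, 44.6, 67.1, 36.7 and 11.4% of the switched level in TOX KO 1 to 6, against 1.47, 60.8, 68.6 and 53.4% in TOX WT 1 to 4. Ighg1 took 73.2% of it in TOX WT 1 and 75.3% in TOX KO 1, and Ighg2b took 51.6% in TOX KO 6. These shares overlap between the groups. They depend on the exon lengths, 1326 bases for Ighg2c against 2512 to 2678 for the other IgG genes. In raw counts Ighg2c stood below Ighg2b in TOX KO 2 (130 against 214) and TOX KO 5 (518 against 863). It stood below Ighg1 in TOX KO 3 (317 against 470). Ighg2c still led the raw counts in TOX WT 2 to 4, in TOX WT 4 narrowly (1148330 against 1089860 for Ighg1). The TOX KO shares rest on 481 to 14992 switched counts per library, against 85129 to 3124655 in TOX WT.

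Ighm stood higher against its partners in TOX KO than in TOX WT. The ratio of Ighm to Ighd per kilobase was 35.2, 18.9, 20.3, 24.7, 50.7 and 17.0 in TOX KO 1 to 6, against 5.59, 4.18, 4.86 and 8.19 in TOX WT 1 to 4. Every TOX KO library lay above every TOX WT library. The difference of the mean log2 ratios was 2.22 (4.68 ± 0.61 in TOX KO and 2.47 ± 0.42 in TOX WT, SD, exact two-sided permutation p = 0.0095, adjusted over 3 tests 0.0095).

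Light chain RNA was low against heavy chain RNA in TOX KO. The ratio of Igkc to the summed heavy chain level was 0.177, 0.393, 0.564, 0.204, 0.0904 and 0.799 in TOX KO 1 to 6, against 2.50, 1.39, 1.35 and 1.64 in TOX WT 1 to 4. All TOX KO libraries had more heavy than kappa RNA per kilobase, and all TOX WT libraries had less. That crossing rests on the division by length. In raw counts every library held more heavy chain than Igkc counts, as in TOX WT 1 (183193 against 112764). The difference of the mean log2 ratios was -2.53 (-1.79 ± 1.17 in TOX KO and 0.74 ± 0.41 in TOX WT, SD, exact two-sided permutation p = 0.0095, adjusted over 3 tests 0.0095). In raw counts this difference was also -2.53, and with the lambda genes added to Igkc it was -2.24. Kappa made up 61.0 to 87.5% of the light chain constant level in TOX KO and 78.2 to 95.3% in TOX WT, with overlap.

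Set against Cd79b, which encodes the signalling partner of the B cell receptor and serves here as a measure of B cell RNA, the members parted into groups. Ighm per unit of Cd79b, both per kilobase, was 24.5, 10.3, 9.67, 18.6, 25.8 and 9.98 in TOX KO 1 to 6, against 1.62, 2.61, 2.86 and 5.11 in TOX WT 1 to 4. Every TOX KO library was higher on this ratio, although its Ighm level was lower. Ighd per unit of Cd79b was 0.477 to 0.753 in TOX KO and 0.290 to 0.626 in TOX WT, and the groups overlap. The summed switched genes per unit of Cd79b were 0.103 to 2.76 in TOX KO, against 1.21, 9.31, 20.9 and 44.7 in TOX WT 1 to 4. They were above the TOX KO range in TOX WT 2 to 4 and within it in TOX WT 1. Igkc per unit of Cd79b was 2.49 to 10.7 in TOX KO, against 7.79, 17.5, 33.0 and 82.9 in TOX WT 1 to 4, again with TOX WT 1 inside the TOX KO range. No test was run on these ratios.

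**Figure D4:**
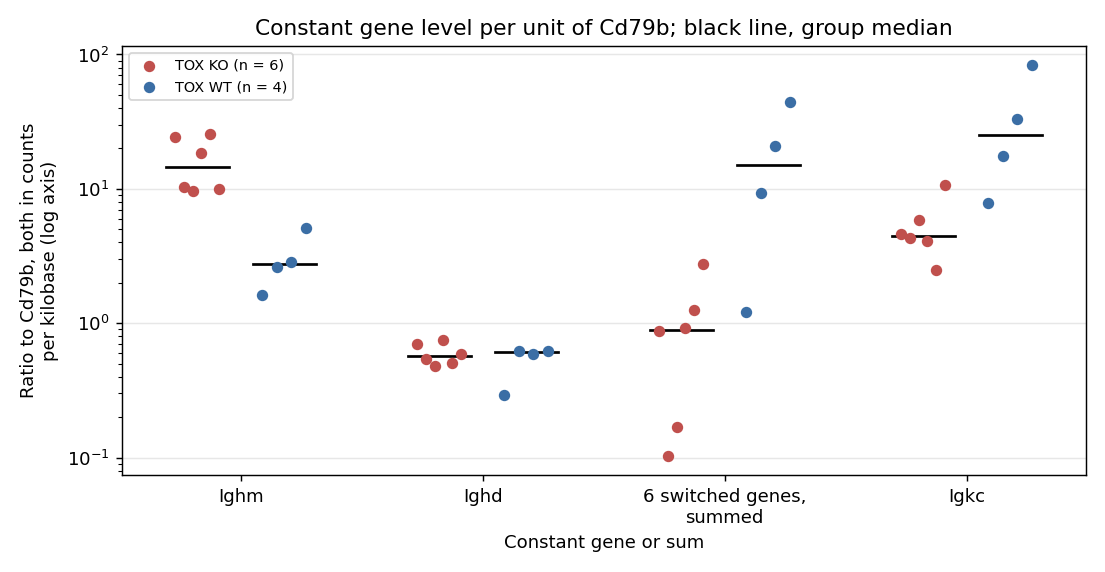
Ratio of Ighm, Ighd, the 6 summed switched genes and Igkc to Cd79b, all in counts per kilobase, on a log axis, with TOX KO (n = 6) left of TOX WT (n = 4) and a black line at each group's median. Ighm lies at 9.67 to 25.8 in TOX KO and 1.62 to 5.11 in TOX WT, while Ighd overlaps between the groups.

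Variable segment counts gave another view of the same transcripts. A finished immunoglobulin mRNA joins a variable segment to the constant exons, whereas germline constant transcripts, which are known in B cells and have been described in T cells, lack one, and the count tables do not separate these forms. Ighv genes had 0.562, 0.859, 1.01, 0.757, 0.711 and 3.26 counts per 100 heavy chain constant counts in TOX KO 1 to 6, against 5.77, 6.93, 8.14 and 10.3 in TOX WT 1 to 4. The groups did not overlap, with TOX KO 6 nearest to TOX WT. Igkv genes had 21.2 to 27.2 counts per 100 Igkc counts in TOX KO and 24.1 to 29.3 in TOX WT, with overlap. The part of germline transcripts in the Ighm values was not tested.

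**Figure D5:**
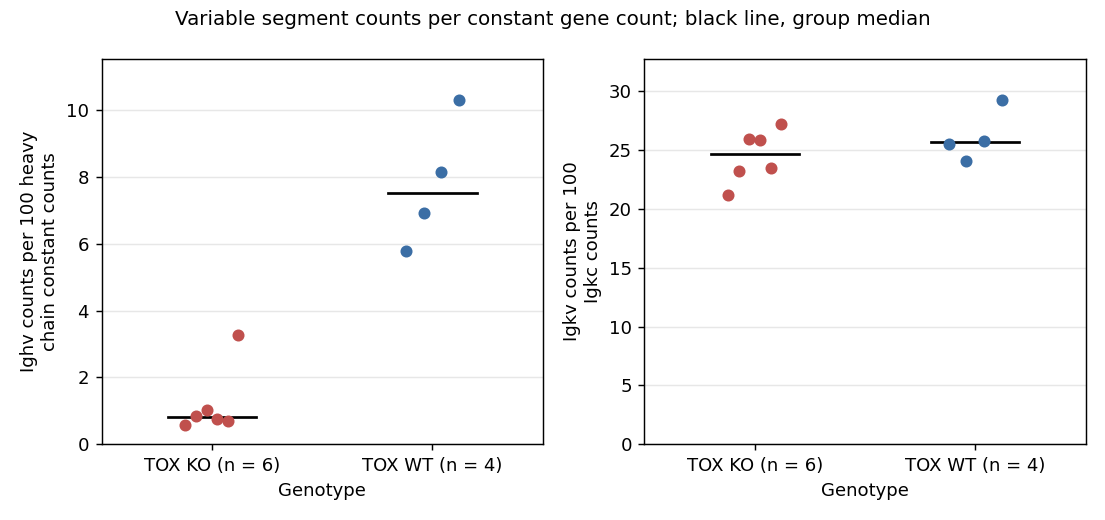
Ighv counts per 100 heavy chain constant counts (left panel) and Igkv counts per 100 Igkc counts (right panel) in each library, TOX KO (n = 6) left of TOX WT (n = 4), with a black line at each group's median. Ighv lies at 0.562 to 3.26 in TOX KO and 5.77 to 10.3 in TOX WT, while Igkv overlaps between the groups.

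Other genes of B cells and myeloid cells, and part of the plasma cell markers, were lower in TOX KO as the constant genes were. Their part in the results was not tested. Of 13 mature B cell markers 9 fell in TOX KO and 0 rose in edgeR, with a median log2 fold change of -5.21. DESeq2 called 12 lower and limma-voom 13, with 0 higher. The summed level of the 13 markers was 87.8 to 346 CPM in TOX KO and 2789 to 11843 CPM in TOX WT. Cd79a averaged 72.2 ± 44.8 CPM in TOX KO and 2013 ± 749 CPM in TOX WT (log2 fold change -4.80, adjusted p = 0.0023, edgeR), and Cd79b averaged 51.8 ± 25.3 CPM in TOX KO and 1619 ± 686 CPM in TOX WT (-4.96, adjusted p = 9.3e-04, edgeR). The B cell surface protein gene Ms4a1 was at 0 in TOX KO 5 and reached 6.61 CPM at most in TOX KO, against 12.8 to 527 CPM in TOX WT.

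Of 12 plasma cell markers 11 were tested, 3 fell and 0 rose in edgeR, with a median of -1.48. Their sum was 313 to 1373 CPM in TOX KO and 1327 to 6413 CPM in TOX WT. DESeq2 called 4 lower and limma-voom 6, with 0 higher. Those that fell in edgeR were Jchain, which links IgM and IgA into polymers, and Mzb1 and Fkbp11, both of the endoplasmic reticulum. Jchain had 0, 0, 0.868, 0.507, 1.21 and 15.5 CPM in TOX KO 1 to 6, against 94.8, 1080, 1344 and 3921 CPM in TOX WT 1 to 4 (log2 fold change -9.06, adjusted p = 0.036, edgeR). TOX KO 6 and TOX WT 4 were the highest of their groups, as for Ighg2b and Ighe. Xbp1, a secretory regulator that is also active in T cells, had 57.8 to 715 CPM in TOX KO and 49.9 to 476 CPM in TOX WT. Its log2 fold change of 0.69 did not pass in edgeR. Irf4 (0.013), Creld2 (0.14) and Edem1 (0.053) had positive values as well and did not pass. Prdm1 (-5.70), Sdc1 (-3.79), Derl3 (-1.48) and Txndc5 (-0.76) had negative values and did not pass in edgeR.

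Germinal centre B cell markers gave no call in edgeR. Of 7 genes 4 were tested and 0 passed, with 2 lower and 0 higher at an unadjusted p under 0.05. DESeq2 called 1 lower, and limma-voom 2 lower and 1 higher. S1pr2, a receptor found on T cells too, had 62.9 to 115 CPM in TOX KO and 34.3 to 113 CPM in TOX WT. Of 15 genes of the class switching machinery 12 were tested and 0 passed in edgeR, with a median of -0.67 and 2 lower and 0 higher at an unadjusted p under 0.05. DESeq2 called 0 as well, and limma-voom 3 lower and 2 higher. These are mostly DNA repair genes that all dividing cells use, such as Mad2l2 (-0.23, adjusted p = 0.77) and Xrcc6 (-0.59, adjusted p = 0.26).

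Receptors that bind immunoglobulin were lower in part. Of 11 genes 9 were tested, 3 fell and 0 rose in edgeR, with a median of -4.43, and DESeq2 and limma-voom each called 7 lower. Those that fell were the inhibitory IgG receptor Fcgr2b (-5.47, adjusted p = 0.0054), the signalling chain Fcer1g (-4.02, adjusted p = 0.017) and the low-affinity IgE receptor Fcer2a (-5.30, adjusted p = 0.0076, edgeR). The IgM receptor Fcmr had 1.78 to 61.8 CPM in TOX KO, against 489, 16.7, 307 and 17.4 CPM in TOX WT 1 to 4, and did not pass in edgeR, while DESeq2 called it lower. The TOX WT libraries split on Fcmr in another way than on the members, with TOX WT 1 the highest.

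Markers of the other cells also differed in level. Of 8 myeloid markers 2 fell in edgeR, Lyz2 (-5.53, adjusted p = 0.016) and Cd68 (-4.56, adjusted p = 0.0023, edgeR). At an unadjusted p under 0.05, 6 were lower and 0 higher in edgeR. DESeq2 called 5 of them lower and limma-voom 8, with 0 higher. The sum of the myeloid markers was 3.12 to 201 CPM in TOX KO and 1029 to 6718 CPM in TOX WT. Of 10 T cell markers 0 passed in edgeR, with 0 lower and 4 higher at an unadjusted p under 0.05, while DESeq2 called 2 higher and limma-voom 7. Their median log2 fold change was 0.69, with a sum of 23484 to 37161 CPM in TOX KO and 11738 to 26252 CPM in TOX WT. TOX WT 4 had the highest myeloid sum and the highest constant gene sum.

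The genes outside the immunoglobulin loci whose profiles lay nearest to a member were found by the root mean square difference of gene-centred log2 CPM over the 10 libraries, among those that averaged 8 CPM or more. This is a description of these libraries, which share the depth and the group split. Ighm was nearest to Pou2af1, a B cell transcriptional coactivator, at 0.29, and then to Fgr (0.39) and Prcp (0.44). Ighd lay nearest to Serpinb1a (0.22), Cd24a (0.34) and Cd79b (0.36), and Igkc to Mzb1 (0.65), Fkbp11 (1.08) and Scimp (1.15). The switched genes lay farther from their nearest gene than Ighm, Ighd and Igkc did. The distance grows with the range of a gene's own values, so it cannot compare likeness between members. The nearest was Ngp for Ighg2c (1.13), Slpi for Ighg1 (1.58), Jchain for Ighg2b (1.67), Eaf2 for Igha (1.90), Lrrk1 for Ighg3 (2.07) and C5ar1 for Ighe (2.27).

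The library names carry numbers from 1 to 8, and the sets 1 to 3 and 4 to 8 were looked at apart in case they were handled apart, which the labels do not say. In library numbers 4 to 8 alone, 3 TOX KO against 3 TOX WT libraries, 6 of the 9 genes were called lower in TOX KO (edgeR), against 7.18% of all genes. The members that did not pass there were Ighg2b, Ighe and Igha. Library numbers 1 to 3 hold TOX KO 1 to 3 and 1 TOX WT library, TOX WT 1, and that lone library was assumed to vary like the others. The median log2 fold change of the 8 members tested there was -4.05 (edgeR), against -7.91 for the 9 members in all 10 libraries. Ighm had -1.05 there and Ighg2b -7.29.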

How the data were processed

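RNA was sequenced from 6 TOX KO and 4 TOX WT samples. Per the labels' protocols, cells were sorted into Trizol, cDNA was made and amplified by SMART-seq v4, and both ends were read for 50 bases on a HiSeq instrument. The deposited tables give raw counts of paired reads for each gene. The authors used featureCounts v1.6.2 on GENCODE M17 and GRCm38.p6, per the file headers, with no strand option and without reads that match several places. The submitters' processing notes also list FastQC and STAR, without versions.

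Counts were fitted with edgeR 4.0.16 in R 4.3.3 (filterByExpr, TMM scaling, quasi-likelihood test, genotype as the term, all 10 libraries), with p-values adjusted over 14214 genes. Alternatives used DESeq2 1.42.0 and limma 3.58.1. The scripts were tested on simulated data with known changes. Log ratios had 0.5 added to counts, and levels per kilobase used the exon lengths given with the authors' counts, on GENCODE M17. Exact permutation tests over libraries were run on 3 makeup measures. The counts of no 2 libraries of the same genotype agreed within sampling noise (lowest chi-square per degree of freedom 122.3). Pairs across genotypes were not compared in this way. Per-library depth sets the precision given with the results.

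The members and lists were chosen with earlier results of these data known. The text names all members, the 2 highest genes of each list, and the 3 nearest genes to Ighm, Ighd and Igkc or the nearest to the others. Ms4a1, and the plasma cell genes and called receptor genes beyond those highest, were named after their values were seen. 1 list gene is not reported here. Shld1 and Shld2 of the class switching list were not matched by name.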

Additional observations from a re-analysis of the deposited data

Results flagged for a closer look

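Of 40 groups of values checked (each member and makeup measure in each genotype), 14 held a library farther from its nearest neighbour than a 95% gap test allows. Chance flags about 1 in 20 groups, and CPM and share of the same gene are not independent.

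TOX KO 6 stood apart from the other TOX KO libraries with 123 CPM of Ighg1, 188 CPM of Ighg2b and 2.93 CPM of Ighe. As shares of its heavy chain level these were 7.23% for Ighg1, 10.7% for Ighg2b and 0.281% for Ighe, while Ighm was low at 74.9% and the summed switched share was high at 20.7%. Its Jchain level of 15.5 CPM and its myeloid marker sum of 201 CPM were also the highest in TOX KO, and their part was not tested.

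TOX WT 4 stood apart from the other TOX WT libraries with 471 CPM of Ighe, or 0.576% of the heavy chain level, and with 3163 CPM of Igha, or 2.30%. TOX KO 4 stood apart from the other TOX KO libraries with 2.97 CPM of Ighg3, or 0.231%.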

How the results depend on the processing

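No member's fold change and no makeup difference changed sign under any alternative run, but the balance over all genes, more lower than higher, turned round in library numbers 1 to 3 alone. The number of constant genes called lower in TOX KO, 7 of 9, stayed at 5 to 8 when 1 library was left out, and at 6 or 7 in the other settings except library numbers 1 to 3 alone (0) and the replicate block (0, with 9 at an unadjusted p under 0.05). Their median log2 fold change, -7.91, ran from -10.02 to -6.34 with 1 library left out, and was -4.05 in library numbers 1 to 3 alone. Over all genes, 384 were called lower and 61 higher. With 1 library left out these counts ran from 143 (without TOX WT 4) to 1201 (without TOX WT 1) and from 10 to 443. They were 999 and 613 with DESeq2, 2768 and 2562 with limma-voom, 1033 and 121 in library numbers 4 to 8 alone, 79 and 316 in numbers 1 to 3 alone, and 0 and 0 with the replicate block (1216 and 1258 at an unadjusted p under 0.05). The higher count was 116 with the library set as a term and 39 with no filter. The cause was not tested. Scaling without immunoglobulin genes gave 7 members. The makeup differences of -65.9 points, 2.22 and -2.53 were -72.9, 2.33 and -2.57 in library numbers 4 to 8 alone, where an exact permutation test cannot go below the p = 0.10 found, and ran from -76.9 to -60.3, 2.02 to 2.41 and -2.83 to -2.20 with 1 library left out. The switched share without the IgG genes differed by -5.10 points (exact permutation p = 0.16). Same-numbered libraries did not deviate together (correlations 0.29, -0.25, -0.22 and 0.30), so the replicate numbers were not taken as pairs. The library numbers 2 and 6, which both groups hold, gave correlations of 0.32 and 0.13, from 2 pairs, too few to take as pairing. With the replicate block over 4 pairs the median was -10.37 and the makeup differences were -69.2, 2.12 and -2.48 (exact permutation p = 0.125 each, the smallest possible). Depth limits Ighg3, Ighe and Igha in TOX KO, where 3, 5 and 1 of the 6 libraries had no count.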
